A study of Homo sapiens with 3 samples.

Results

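The genes of mitosis, the kinesins and the centromere were chosen by gene symbol alone: kinesins (KIF), centromere proteins (CENP), kinetochore and spindle checkpoint genes (BUB, NUF2, NDC80), mitotic kinases and cyclins (AURKA, AURKB, PLK, CCNA, CCNB, CDK1), the anaphase-promoting complex (ANAPC, CDC20, CDC27), cohesin and condensin (SMC, RAD21, STAG, NCAP), and TOP2A, MKI67, NUMA1 and TPX2. A cluster was assigned to the first gene named for it, and 83 such genes held at least 1 cluster, of 9109 genes in the series. The data are RNA editing clusters from 3 biological replicates of HEK293XT, a HEK293T human embryonic kidney cell line labelled wild-type, in which doxycycline induced an RBFOX2-APOBEC1 fusion for 72 h. The labels name transient transfection and also describe stable lines. There is 1 condition, so that values are compared between replicates and with the remaining clusters. No control cells lacking the fusion enter the comparisons, so background editing was not measured.

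In STAMP, an RNA-binding protein carries the cytidine deaminase APOBEC1 to the transcripts it binds, and the resulting C-to-U changes are read from RNA sequencing. RBFOX2 is a splicing regulator that recognizes GCAUG in RNA. The proteins of the chosen genes are background to division: cohesin holds sister chromatids together, condensin compacts chromosomes, the kinetochore joins centromeres to spindle microtubules, the checkpoint delays anaphase until all are attached, and the anaphase-promoting complex is the ubiquitin ligase that then releases the sisters. The set reaches beyond mitosis. Of the 83 genes, 14 are kinesins outside the list of mitotic kinesins used here. Some of the 14, such as KIF5B and KIF3B, carry cargo along microtubules. CENPJ, likewise, is a centriole protein.

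Among 107 RefSeq protein-coding symbols that fit the same rule (assembly GRCh38.p14), 82 held a cluster and 25 did not. CENPJ, the remaining gene, goes by another symbol there. The symbols without a cluster included CDC20, the activator of the anaphase-promoting complex, PLK4, the kinase of centriole duplication, and CENPB. They also included 12 of 26 kinesins outside the mitotic list, among them KIF13A and KIF13B. All 8 condensin symbols and 5 of 6 cohesin symbols held one, and SMC1B, the meiotic cohesin subunit, did not. Of the 25, CENPU and CENPX have clusters under older symbols, which the rule does not take. The RNA levels of the genes without a cluster were not analysed here. The share with a cluster over all RefSeq protein-coding symbols was not computed, so these counts have no background. For 75 of the 83 genes RefSeq gave a strand and a chromosome, and the clusters lay on that strand and that chromosome for all 75.

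The chosen genes held 195, 175 and 126 clusters in replicates 1, 2 and 3, or 165 ± 35.5 (SD, n = 3). These are 1.36%, 1.15% and 1.11% of all clusters. The number of genes with a cluster was 76, 69 and 51. Replicate 3 was lowest in both counts, and it also has the fewest clusters overall (11367, against 14295 and 15181). Reads within all clusters numbered 1637592, 1731304 and 1104249, which is not the depth of the libraries. Those within the chosen genes numbered 13914, 12395 and 5905. In RNA from bulk cells, fewer cells that express a gene and less RNA per cell cannot be told apart.

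Edit fraction here means edited C bases as a share of the C bases that reads covered, in percent. Summed over the chosen genes, 996, 952 and 618 bases were edited of 91830, 78546 and 40198 covered C bases. The pooled edit fraction was 1.08%, 1.21% and 1.54% in replicates 1, 2 and 3, against 0.938%, 0.932% and 0.994% for all other clusters. It was above the others in each replicate, by 0.323 percentage points ± 0.202 (SD, n = 3; two-sided exact sign-flip permutation test over replicates, p = 0.25, the smallest that 3 replicates allow). The median edit fraction per cluster did not share this direction. It was 1.39%, 1.57% and 1.85% in the chosen genes and 1.64%, 1.65% and 1.80% in the others, a difference of -0.0927 percentage points ± 0.148 (exact permutation p = 0.5). The pooled value weights clusters by their covered C bases. The chosen genes held 0.852%, 0.658% and 0.519% of these bases, against 1.36%, 1.15% and 1.11% of clusters. Their deepest cluster had a mean read depth of 371, 392 and 366 reads, and that of the others 8012, 8001 and 7169. The part of depth in the pooled difference was not tested.

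Edit fraction falls with read depth in these data, and the chosen clusters were deeper by the median, with a median of the mean read depth of 32.8, 37.4 and 24.8 reads against 24.98, 24.6 and 21.0 in the others. Replicate 3 is the exception among deep clusters, with 16.7% of the chosen clusters at a depth of at least 50 against 24.6% of the others. Compared within depth classes, the difference of the medians (chosen minus other) was 0.758 percentage points ± 0.516 (SD, n = 3) under a depth of 10, 0.573 ± 0.687 at 10 to 20, and between 0.0110 and 0.0679 in the 3 classes from 20 to 50. At a depth of 30 to 40 the median was 1.40% ± 0.0314 (SD, n = 3) in the chosen genes and 1.39% ± 0.00561 in the others. From a depth of 50 upward the median was 0.964% ± 0.102 against 0.781% ± 0.00937, and higher in each replicate. Within this class the chosen clusters were shallower by the median (79.7, 72.8 and 60.7 reads against 92.5, 92.4 and 89.1). At a depth of 50 to 100 the medians of edit fraction were 0.968%, 1.01% and 1.09% against 0.923%, 0.927% and 0.910%. At 100 to 200 they were 0.616%, 0.653% and 0.968% (15, 10 and 2 clusters) against 0.671%, 0.691% and 0.675%. From 200 upward they were 0.438%, 0.621% and 1.07% (4, 6 and 1 clusters) against 0.506%, 0.538% and 0.527%. Restricting the comparison to this depth therefore turns the difference of medians to 0.183 percentage points (exact permutation p = 0.25), and a minimum of 2 edited reads turns it to 0.0429 (p = 1).

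**Figure D1:**
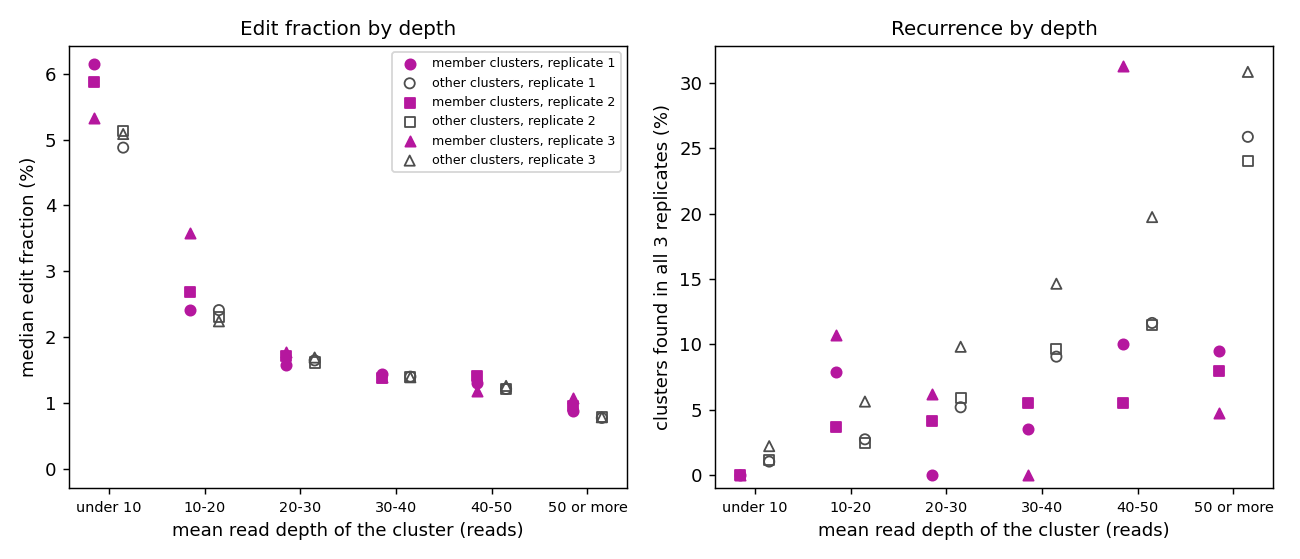
Median edit fraction in percent (left) and share of clusters found in all 3 replicates in percent (right), by the mean read depth of the cluster in reads. Filled symbols (member clusters) are those in the mitosis, kinesin and centromere genes and open symbols all other clusters, with 1 symbol per replicate; at a depth of at least 50 the filled symbols lie between 4.76% and 9.52% on the right and the open symbols between 24.0% and 30.8%.

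The next comparison asks how far the same places were edited in each replicate. Overlapping clusters (minimum 1 base, same strand) were merged over replicates into loci. The chosen genes held 403 loci, of which 13 lay in all 3 replicates, 65 in 2 and 325 in 1. The 13 are 3.23%, beside 4.77% of all 33244 loci of the series. For loci in 2 replicates the order was the other way, with 16.1% beside 11.9% of all loci. Loci in 1 replicate made up 80.6% beside 83.4%. Counted by cluster, 12, 9 and 10 clusters of replicates 1, 2 and 3 overlapped a cluster of each other replicate, or 6.15%, 5.14% and 7.94%. Over all clusters of the series the shares were 10.6%, 9.86% and 13.1%. The chosen genes were lower than the other clusters in each replicate, by 4.83 percentage points ± 0.379 (SD, n = 3; exact permutation p = 0.25).

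At the level of genes the order was the other way. A cluster in every replicate was found in 46 of the 83 genes (55.4%), against 38.1% of 9026 other genes. Of these 46 genes, 12 (26.1%) held a locus found in all 3 replicates, against 33.1% of the 3441 other genes with a cluster in every replicate. Of the remaining 34, 19 held a locus shared by 2 replicates, and in 15 no cluster overlapped one of another replicate. This split was not made for the other genes, so whether it is particular to the chosen genes is not known. The chosen genes with a cluster held 2.57, 2.54 and 2.47 clusters each (means in replicates 1, 2 and 3), and the other genes 2.22, 2.27 and 2.04. The medians were 2, 2 and 1 against 2, 2 and 2. Genes with 1 cluster made up 34.2%, 42.0% and 52.9% of the chosen genes, against 46.3%, 46.0% and 49.7% of the others.

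The gap in shared clusters was widest among deep clusters. At a mean read depth of at least 50, 6 of 63, 5 of 63 and 1 of 21 clusters of the chosen genes were found in all 3 replicates. These are 9.52%, 7.94% and 4.76%, against 25.9%, 24.0% and 30.8% of the other clusters. The difference was -19.5 percentage points ± 5.69 (SD, n = 3; exact permutation p = 0.25). Depth differed within this class too: the median was 79.7, 72.8 and 60.7 reads in the chosen genes and 92.5, 92.4 and 89.1 in the others, of which 19.1%, 18.6% and 18.4% reached 200 reads. At a depth of 50 to 100 the shares were 9.09%, 8.51% and 0% (4 of 44, 4 of 47 and 0 of 18 clusters) against 16.4%, 16.3% and 23.8%. At 100 to 200 the counts were 0 of 15, 0 of 10 and 0 of 2, against 30.7%, 27.9% and 32.3% of the others. The sign was not the same at all depths: at a depth of 10 to 20 the chosen genes were higher in each replicate. The shares there were 7.89%, 3.7% and 10.7% (3 of 38, 1 of 27 and 3 of 28 clusters) against 2.75%, 2.44% and 5.64%. At a depth of at least 200 the counts were 2 of 4, 1 of 6 and 1 of 1, or 50%, 16.7% and 100%, against 46.4%, 41.6% and 50.7%. The part of depth in the gap was not tested further. With replicate 1 left out, and overlap required with the single remaining replicate, the difference at a depth of at least 50 was -7.89, and with an overlap of 50% of both clusters required it was -8.52.

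**Figure D2:**
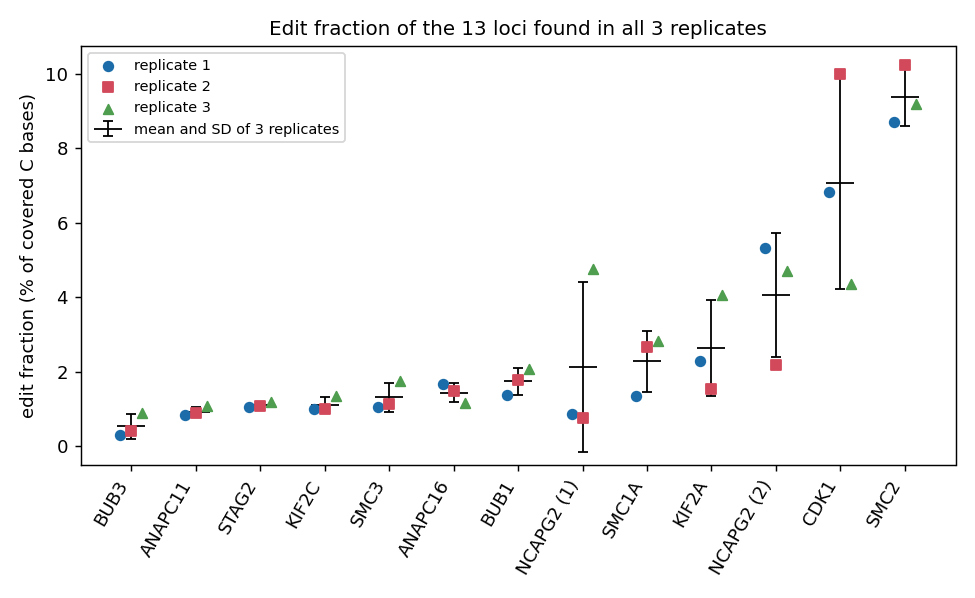
Edit fraction in percent of covered C bases at each of the 13 loci of mitosis, kinesin and centromere genes found in all 3 replicates, ordered by mean, with 1 symbol per replicate and a bar for the mean and SD (n = 3). The SMC2 locus is highest at 8.70% to 10.2%, BUB3 lowest at 0.286% to 0.896%, and NCAPG2 (1), the locus that starts at 158424244 (0.746% to 4.76%), has its replicates farthest apart relative to its mean.

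Of the 13 loci, 9 have at least 1 base that lies in a cluster of every replicate. The other 4, in CDK1, BUB3, KIF2A and the locus of NCAPG2 that starts at 158424244, are joined only through a cluster that overlaps both neighbours. The share of edited reads at each locus was tested for a difference between replicates with an exact test of edited against other reads, adjusted over all 1586 loci of the series found in all 3 replicates. None of the 13 was called by the exact test, and none by the chi-square test run as an alternative. The lowest adjusted p was 0.827, and 0 of the 13 had an unadjusted p under 0.05. Over all loci 0.694% were called (11 of 1586). With edited bases over covered C bases in place of reads, 3.66% of all loci and 1 of the 13 were called. This was the NCAPG2 locus from 158424244 to 158424378 (adjusted p = 0.0299, exact test), where the replicates share no base. Bases on the same read are not independent counts. The 13 loci held 1 to 64 edited reads per replicate, and how large a difference such counts could show was not measured at these loci.

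Condensin genes held the most edited bases of any role, 22.6% of those in the chosen genes, over 8 genes and 95 clusters. SMC2, the ATPase subunit that pairs with SMC4 in both condensin complexes, has the highest locus found in all 3 replicates. It lies in an exon on the plus strand of chromosome 9 from 106894321 to 106894365 (hg19), with the same bounds in each replicate. Edited reads numbered 10 of 25, 18 of 27 and 8 of 16 in replicates 1, 2 and 3. The edit fraction was 8.70%, 10.2% and 9.20%, or 9.37% ± 0.781 (SD, n = 3). All replicates lie close together and far above the median of 1.74% over the 13 loci. Mean read depth at the SMC2 locus was 15.3, 22.3 and 11.2 reads, against a median of 54.6 over the 13 loci. Edit fraction falls with depth, and this comparison does not hold depth equal. The count of edited bases equals that of edited reads in each replicate, over 8 C bases. The share of edited reads was 40% (Wilson 95% interval 23.4 to 59.3, for counting error only), 66.7% (47.8 to 81.4) and 50% (28 to 72), and these intervals overlap. The other 11 loci of SMC2 each lie in a single replicate.

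SMC4 had more edited bases than any other chosen gene, 91, 60 and 33 in 9, 8 and 7 clusters. None of its 17 loci lies in all 3 replicates, and 6 lie in 2. Its pooled edit fraction was 0.786%, 0.785% and 2.56%, with replicate 3 apart from the others. The reads in its clusters numbered 1375, 889 and 265 in the same order. Of its 24 clusters, 12 lie in 1 exon, the one farthest toward the 3′ end among its clusters. The locus in this exon from 160152301 to 160152555 on chromosome 3 had 27 edited reads of 596 in replicates 1 and 2 together, the most of any locus that lies in 2 replicates.

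NCAPG, a non-SMC subunit of condensin I, held the most clusters, 8, 10 and 10 in replicates 1, 2 and 3. They spread over 15 exons and 31508 bases between the first and last cluster centre on chromosome 4. Of its 21 loci, 7 lie in 2 replicates and none in all 3. Edited bases numbered 46, 36 and 83, and the pooled edit fraction was 1.48% ± 0.324 (SD, n = 3). NCAPG2, its counterpart in condensin II, held 4, 4 and 9 clusters with a pooled edit fraction of 1.71%, 1.72% and 1.65%, the smallest SD among the condensin genes with clusters in all 3. Both of its loci found in every replicate lie in the exon at its 3′ end on the minus strand of chromosome 7. The locus from 158424064 to 158424213 had an edit fraction of 5.32%, 2.17% and 4.71% from 4, 1 and 3 edited reads. The locus from 158424244 to 158424378 had 0.848%, 0.746% and 4.76%, with replicate 3 far above the others, from 6, 3 and 2 edited reads. Mean read depth at this locus was 80.3, 74.9 and 19.0 reads, and the replicates share no base. By the share of edited reads, replicate 3 was not apart, at 4.65%, 3.53% and 4.76% in replicates 1, 2 and 3.

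**Figure D3:**
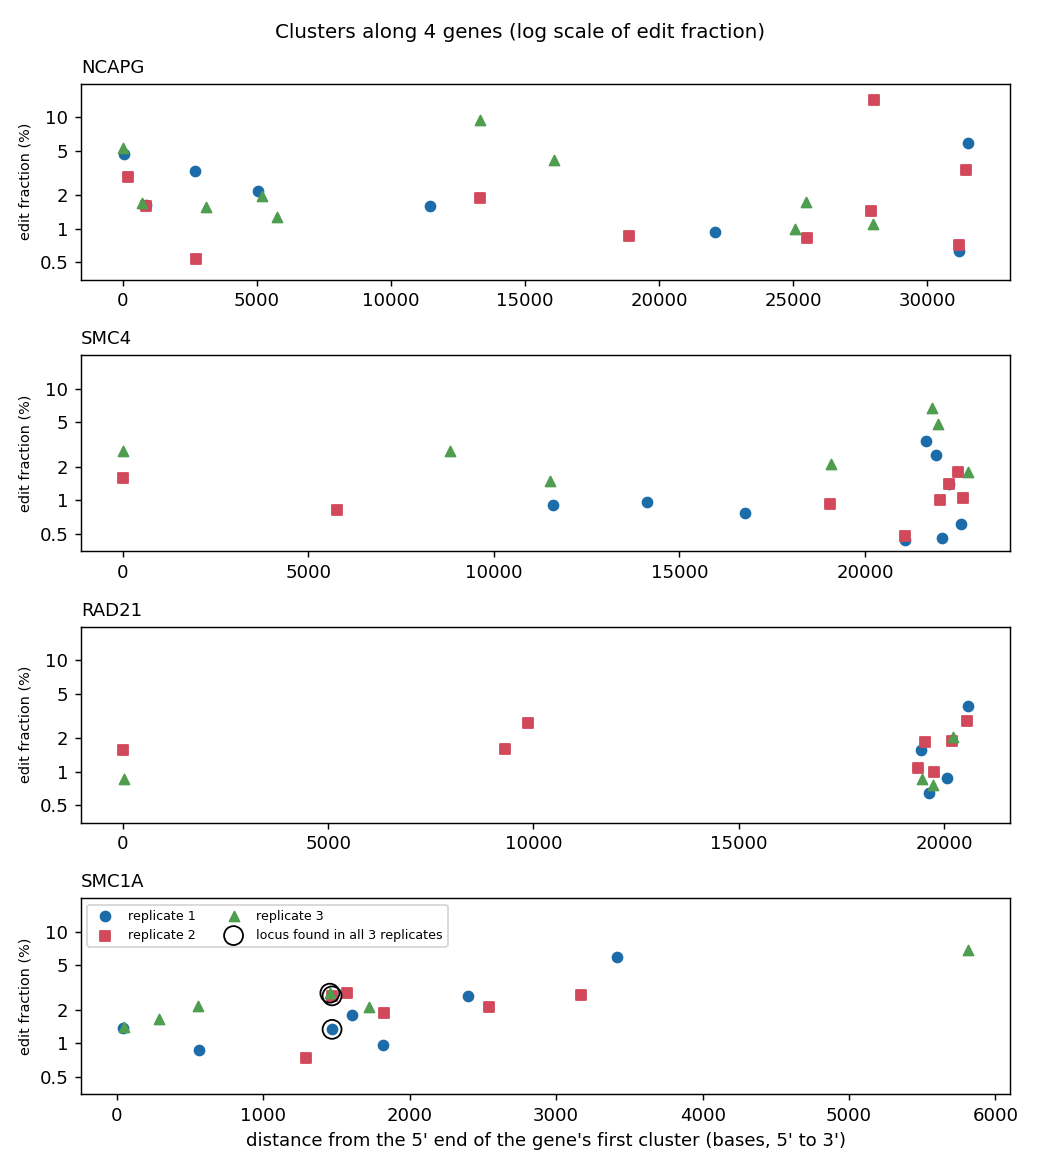
Clusters along NCAPG, SMC4, RAD21 and SMC1A: distance in bases of each cluster centre from the 5′ end of the gene's first cluster, in the direction of transcription, against edit fraction in percent on a log scale, with symbols by replicate. Circles mark the only locus of these 4 genes found in all 3 replicates, in SMC1A; the clusters of NCAPG run along the gene, while 12 of 24 in SMC4 and 12 of 16 in RAD21 lie in 1 exon at the 3′ side.

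Cohesin was the role with a cluster of every one of its 5 genes in every replicate, and 10 of its 47 loci lie in 2 replicates and 3 in all 3. SMC1A, one of the ring's ATPases, held 7, 6 and 6 clusters, and all 19 lie in 1 exon, the last in the direction of transcription, on the X chromosome. Its locus from 53405406 to 53405495 on the minus strand had 6 of 113, 11 of 97 and 7 of 57 reads edited. The edit fraction was 1.34%, 2.66% and 2.82%, or 2.27% ± 0.815 (SD, n = 3), with replicate 1 below the others. The clusters of all 3 replicates share 60 bases there. SMC3, the partner of SMC1A in the ring, had a locus on chromosome 10 from 112361486 to 112361545 with 1.04%, 1.12% and 1.75%. STAG2, a subunit bound to the ring, had one on the X chromosome from 123235955 to 123236029 with 1.06%, 1.08% and 1.19%, from 1, 2 and 1 edited reads. RAD21, which closes the ring and is cut at anaphase, held 4, 8 and 4 clusters and no locus in all 3 replicates. Of its 11 loci, 5 lie in 2 replicates, and its pooled edit fraction was 1.28% ± 0.242. STAG1 reached 2.15%, 8.25% and 4.04% from 60, 18 and 14 reads.

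In the anaphase-promoting complex, 11 genes held 54 clusters, but 4 of them held a cluster in every replicate. ANAPC11, the RING subunit that carries the ligase activity, had 1 cluster in each replicate, on chromosome 17 from 79857977 to 79858021. It had the most edited reads of the 13 loci, 50 of 505, 55 of 523 and 64 of 464. The edit fraction was 0.826%, 0.873% and 1.07%, or 0.924% ± 0.132 (SD, n = 3). Replicate 3 was highest, and the exact test of edited reads gave an adjusted p of 0.827. The files name NPB, a neuropeptide gene, for the same exon, so these reads cannot be assigned to ANAPC11 alone. In 2 of the 3 replicates there are fewer edited bases than edited reads (49 against 50, and 63 against 64). ANAPC16, a small subunit, had a locus on chromosome 10 from 73992970 to 73993119 with 1.65%, 1.49% and 1.16%. CDC27, a scaffold subunit, held 8, 4 and 3 clusters, 12 of the 15 in the exon at its 3′ end, and none of its 15 loci recurs in another replicate. Its pooled edit fraction nevertheless lay at 1.63%, 1.24% and 1.58%. ANAPC7 held 2, 5 and 3 clusters with 7, 42 and 14 edited bases.

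Genes listed under centromere, kinetochore and spindle checkpoint were the largest group, 21 genes with 104 clusters, of which 12 genes held a cluster in every replicate. Of their 88 loci, 2 lie in all 3 replicates, in BUB3 and BUB1. BUB3, a checkpoint protein at kinetochores, had 15 of 478, 7 of 304 and 4 of 148 reads edited at a locus on chromosome 10 from 124924732 to 124924836. Its edit fraction of 0.286%, 0.390% and 0.896% was the lowest mean of the 13 loci, 0.524% ± 0.327 (SD, n = 3). The clusters of the 3 replicates share no base there. BUB1, a checkpoint kinase, held 3, 4 and 10 clusters, and replicate 3 was highest although it is lowest for the set as a whole. The reads in these clusters numbered 247, 204 and 416. The pooled edit fraction of BUB1 was 1.58%, 1.49% and 1.46%, or 1.51% ± 0.0609. Its locus on chromosome 2 from 111397320 to 111397394 rests on 2, 1 and 2 edited reads. CENPW, a histone-fold protein of the inner kinetochore, had 6, 33 and 3 edited bases, most in replicate 2. CENPF, a large protein of the outer kinetochore, had 6, 10 and 11. NUF2, CENPJ and CENPK held 2 clusters each, all in replicate 1. CENPJ, a centriole protein, is counted among the 21 genes of this group.

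**Figure D4:**
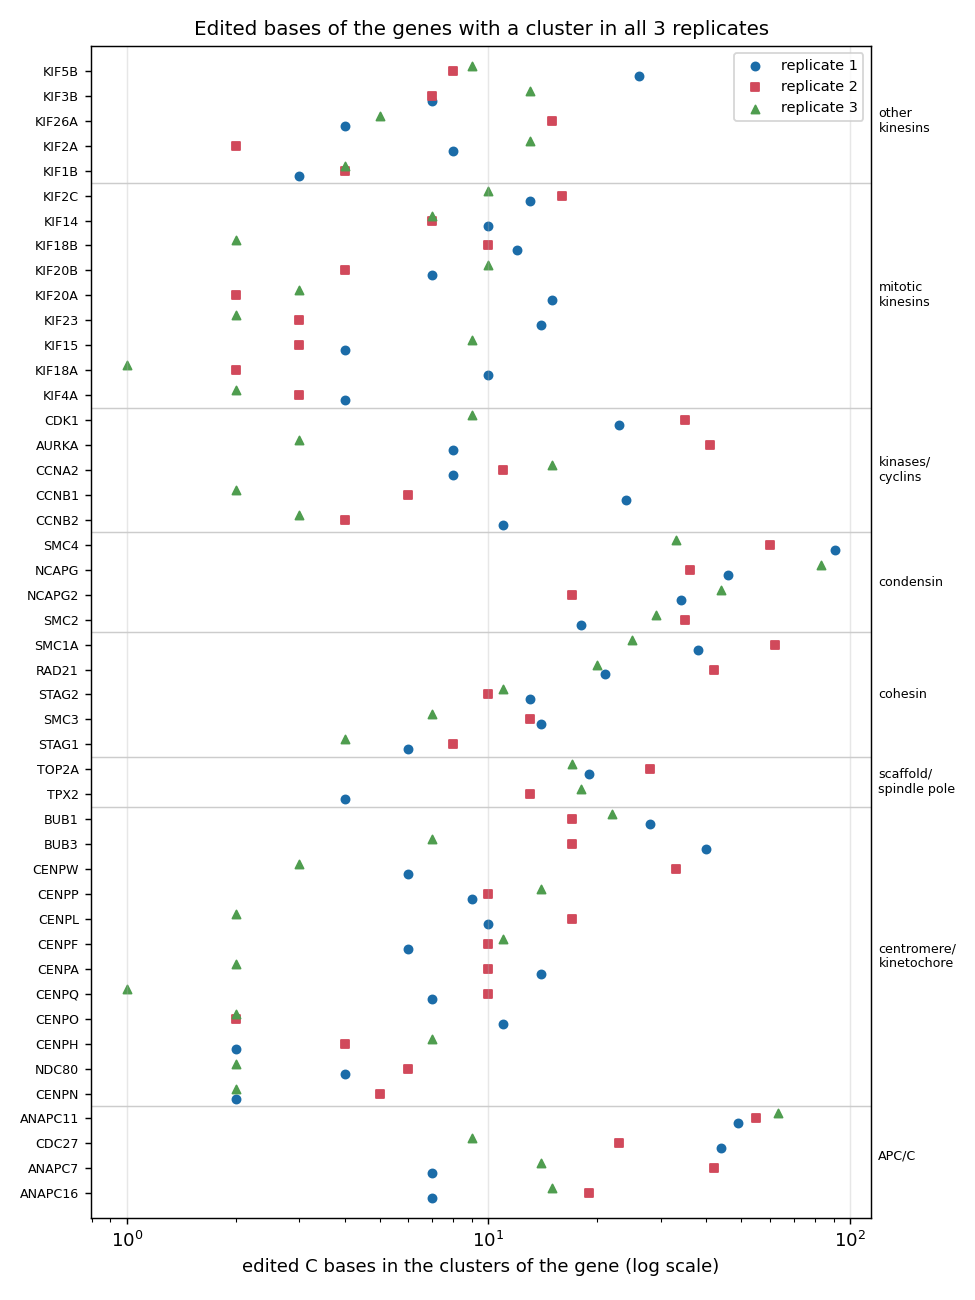
Edited C bases summed over the clusters of each of the 46 genes with a cluster in all 3 replicates, on a log scale, with 1 symbol per replicate and genes grouped by role (APC/C is the anaphase-promoting complex). SMC4, NCAPG and ANAPC11 reach the highest counts, at 91, 83 and 63 bases in their highest replicate, and no mitotic kinesin shown exceeds 16.

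Mitotic kinases and cyclins held 54 clusters in 9 genes, at the greatest median depth of the roles in replicates 1, 2 and 3 (59.5, 70.2 and 53.3 reads). The pooled edit fraction was 0.795%, 0.905% and 0.935%. CDK1, the kinase that drives entry into mitosis, held 4, 7 and 3 clusters, 10 of the 14 in the exon farthest toward the 3′ end among them. Its locus on chromosome 10 from 62553786 to 62553890 had 6.82%, 10.0% and 4.35%, from 5 of 22, 1 of 6 and 1 of 13 reads, and the replicates share no base. AURKA, a spindle pole kinase, had 8, 41 and 3 edited bases in 2, 5 and 1 clusters. CCNB1, the cyclin partner of CDK1, had 24, 6 and 2 edited bases over 809, 222 and 106 reads, a pooled edit fraction of 0.521%, 0.472% and 1.82%. PLK1, a kinase of mitotic entry and spindle assembly, held 5, 0 and 1 clusters. A replicate without a cluster has no value here, and its reads were not analysed.

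Mitotic kinesins numbered 11 genes with 51 clusters, and 9 of them held a cluster in each replicate. KIF2C, which depolymerizes microtubules at kinetochores, had the only locus found in all 3. It lies on chromosome 1 from 45233235 to 45233414, with 4 of 95, 9 of 119 and 1 of 63 reads edited. The edit fraction was 0.994%, 0.999% and 1.34%, or 1.11% ± 0.200 (SD, n = 3), although replicate 3 rests on 1 edited read. KIF11, the motor that pushes spindle poles apart, held 5, 2 and 0 clusters. Its cluster in replicate 2 from position 94414053 has the highest edit fraction of all clusters in the chosen genes, 16%, from 12 edited bases on 2 of 12 reads.

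The kinesins outside the mitotic list had the highest pooled edit fraction of the roles in each replicate, 1.89%, 2.50% and 2.90%, together with a low median depth of 19.0, 8.36 and 11.4 reads. None of their 49 clusters reached a depth of 50. KIF5B, the heavy chain of conventional kinesin, held 5, 2 and 2 clusters with a pooled edit fraction of 1.83% ± 0.210 (SD, n = 3). KIF2A, a microtubule depolymerase, had the only locus found in all 3 replicates, on chromosome 5 from 61681957 to 61682106, with 2.29%, 1.54% and 4.05% from 2, 1 and 3 edited reads. KIF26A had a locus on chromosome 14 from 104641470 to 104641514 with 12 of 17 reads edited in replicates 2 and 3 together.

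TOP2A, the topoisomerase that disentangles sister chromatids, held 6, 6 and 3 clusters, 11 of the 15 in the exon at its 3′ end, with a pooled edit fraction of 0.722%, 0.806% and 1.11%. Of its 12 loci, 3 lie in 2 replicates and none in all 3. TPX2, a spindle assembly factor, held 2 clusters in each replicate at 1.25%, 0.813% and 1.03%. MKI67, which coats mitotic chromosomes, held 2, 2 and 0, and NUMA1, a spindle pole protein, 1 cluster in replicate 1.

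Features that the choice by name did not use were compared next. The clusters of the chosen genes held fewer C bases, 9.55, 9.54 and 9.07 per cluster on average against 10.3, 10.5 and 10.6 in the others. Of the bases in clusters, 18.1%, 18.8% and 17.9% were C, against 19.3%, 19.7% and 20.03%. The difference in this share was -1.43 percentage points ± 0.636 (SD, n = 3) and had the same sign in each replicate (exact permutation p = 0.25). Cohesin genes had the lowest share of the roles, 14.1%, 14.96% and 14.7%. Cluster length differed little, with means of 52.8, 50.9 and 50.8 bases against 53.6, 53.0 and 52.7.

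The files number exons of a gene by coordinate, so that on the minus strand index 0 is the exon at the 3′ end. Among exonic clusters on the minus strand, 64.6%, 50% and 54.7% of those in the chosen genes lay in this exon, against 63.4%, 58.7% and 60.3% of the others. The difference of -4.34 percentage points ± 5.09 (SD, n = 3) does not exceed the spread between replicates (exact permutation p = 0.5). On the plus strand index 0 is the exon at the 5′ end, and 0 of 110, 1 of 88 and 0 of 73 clusters lay there, against 3.94%, 3.99% and 4.40% of the others.

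Exons held 98.5%, 97.1% and 100% of the clusters of the chosen genes in replicates 1, 2 and 3, against 97.8%, 97.7% and 98.3% of the others. Introns held 3, 5 and 0 clusters of the chosen genes, in BUB3, CCNA2, CENPN, CENPV, NCAPG and NCAPH2. In several of these intronic clusters, the depth is not matched by the covered C bases, which was not compared with other intronic clusters. The NCAPG cluster of replicate 2 from 17841848 to 17841877 has a mean read depth of 57.9 but 7 covered C bases over 2 C bases, or 3.5 per C base, and its edit fraction of 14.3% is 1 edited base. In CENPV the depth was 169.5 and the coverage per C base 6.62.

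Clusters with 1 edited read made up 26.2%, 26.9% and 37.3% of those in the chosen genes, and 28.01%, 31.1% and 33.0% of the others. Some of these reads carried several changes. At least 5 edited bases lay on the single edited read of 8, 9 and 6 clusters of the chosen genes, or 15.7%, 19.1% and 12.8% of their clusters with 1 edited read, against 14.7%, 13.8% and 15.1% of the others. The read with the most was in NCAPG2 in replicate 2, with 10 edited bases from 158485535 to 158485639, followed by reads in ANAPC7 (replicate 2) and SMC2 (replicate 3) with 9 each.

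Genes of mitosis outside the rule gave a further comparison. Of 76 listed, among them the chromosomal passenger BIRC5, the midzone protein PRC1 and augmin subunits, 69 held a cluster, with 136, 164 and 128 clusters in replicates 1, 2 and 3. Of their 328 loci, 19 (5.79%) lay in all 3 replicates, beside 4.77% of all loci. Of the 69 genes, 39 (56.5%) held a cluster in every replicate, beside 55.4% of the chosen genes. C made up 18.5%, 19.1% and 18.6% of the bases in their clusters. The median edit fraction was 1.57%, 1.42% and 1.81%. PRC1 had 336 edited bases over 19 clusters, more than any of the chosen genes, and BIRC5 216 over 23.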

How the data were processed

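RNA editing clusters of 3 biological replicates of 1 condition were analysed. Each replicate was processed separately by the authors: SAILOR called C-to-U positions and dropped common SNPs, and FLARE tested windows (30 bases), kept those within an adjusted p of 0.1 and merged them across gaps of up to 15 bases. The submitters' processing notes name STAR (version not given in the sources used here) and the build hg19. Positions are 1-based. Per cluster, the deposited counts are whole and unscaled (edited bases, C bases, covered C bases, reads and edited reads). The authors' fractions (edit fraction, fraction of edited reads) are ratios of these counts. The deposited mean read depth is a coverage signal over the cluster. The authors' score is a cumulative probability between 0 and 1. Windows that did not pass are not in these data, so recurrence depends on depth and on the threshold.

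A cluster belongs to the first gene named for it. 11 clusters of the chosen genes carry a second name, and 4 further clusters name a chosen gene second and were left out. Values are means and SD over replicates. Python 3.11.15, NumPy 2.4.6, pandas 2.3.3 and SciPy 1.17.1 were used. Differences over replicates had two-sided exact sign-flip permutation tests. Loci had a Fisher-Freeman-Halton exact test (chi-square above 300 edited reads) with Benjamini-Hochberg adjustment. The test was tested on simulated data. Intervals cover counting error only, since PCR copies cannot be told from separate molecules. The replicates are called biological, and separate cultures are not described, so tests measure only the spread between these samples. Alternatives changed the minimum score, depth and edited reads, the overlap, the test, the mean for the median, the gene name used and the replicates included.

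Genes and loci named are the 12 genes with a locus in all 3 replicates, loci with the highest edit fraction at a depth of at least 50 in each replicate (2 loci reach it, in ANAPC11 and BUB3), and the gene with most clusters in each role. Further genes named were chosen after their values were seen. The members and lists were chosen with earlier results of these data known. Sequences of the clusters are not given, since no genome of the build hg19 was used here.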

Additional observations from a re-analysis of the deposited data

How the results depend on the processing

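Of 97 values under alternatives for 20 results, 60 left out 1 replicate, and 75 were close to the main value by one of 3 limits: the same direction for a difference, whatever its size, 1 SD between replicates for a level, and 1.5 times for a count. Of the 75, 39 are means of a single locus with 1 replicate left out, which stay within 1 SD by construction. The same holds for the median edit fraction with a replicate left out. Among the values not for single loci, 36 were close, 20 moved and 2 reversed. A minimum score of 0.95, or any listed gene name in place of the first, changed no direction and moved no count by 1.5 times. Clusters in the chosen genes went from 165 per replicate to 97.3 at a minimum score of 0.99 and 49.0 at a minimum depth of 50, and were 150.5 to 185 with a replicate left out. Their median edit fraction of 1.61% became 1.95% at a score of 0.99, 0.964% at a depth of 50 and 2.49% with the mean, and 1.48% to 1.71% with a replicate left out. The difference from other clusters reversed from -0.0927 to 0.183 at a depth of 50 and 0.0429 with at least 2 edited reads, and was -0.330 at a score of 0.99 (exact permutation p = 0.25). Clusters found in all 3 replicates fell from 10.3 per replicate to 3.00, 1.33 and 4.67 at a score of 0.99, a depth of 50 and 2 edited reads, and to 4 at an overlap of 50%; loci fell from 13 to 3, 2, 6 and 4. Leaving out a replicate requires 1 overlap fewer by construction, and gave 28.5 to 39.5 clusters and 28 to 39 loci; the 50% overlap and score settings also leave fewer clusters. Loci whose edited share differed between replicates numbered 0, and 1 with edited bases; 0 to 0 with a replicate left out. The settings for loci, for gene names and for deep clusters were chosen after seeing the data. The gap in sharing among deep clusters was -8.52 at 50% overlap, -12.9 at a depth of 50 to 100, and -7.89 to -19.2 with a replicate left out. No paired analysis was possible because there is only 1 group of samples, so replicate numbers pair no samples across groups; chosen and other clusters were compared within each replicate.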

Other observations

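The rule goes by symbol, and 2 centromere genes appear in the files under older names only. CENPU is listed as MLF1IP, with 12, 9 and 3 clusters in replicates 1, 2 and 3. Its clusters held 54, 107 and 27 edited bases, a pooled edit fraction of 1.12%, 1.23% and 0.647%. Of its 12 loci, 2 lie in all 3 replicates and 7 in 2. The 21 genes listed under centromere, kinetochore and spindle checkpoint, CENPJ included, have 2 of 88 in all 3. CENPX is listed as STRA13, with 1, 0 and 1 clusters. These genes were looked up after the values of the others were seen.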
